A study of Homo sapiens with 4 samples.

Results

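Of the 19314 genes listed for 4 RNA libraries of U87 cells, 38 belong to the ATF4 and endoplasmic reticulum (ER) stress response, and these were selected by name from a fixed list of symbols. That list was chosen with earlier results of these data known. U87 is an established human malignant glioma line. All 38 had a value in the deposited tables, and 30 had a mean level of at least 10 FPKM, the number of sequenced fragments scaled for transcript length and for the depth of the library. The 2 knockdown libraries (labelled PTP2, genotype PTPRN knockdown) came from cells carrying a lentiviral short hairpin against PTPRN, and the 2 control libraries (labelled SCR) from cells carrying a scrambled hairpin, so that both groups carry the vector. PTPRN is a receptor-type protein tyrosine phosphatase of secretory granules with an inactive phosphatase domain. One hairpin and 1 cell line were used, and no time after infection is given for these libraries. The labels do not say whether the libraries of a group came from separate cultures, so the p-values below measure only the spread between these libraries, which may be technical. The question was which members of the stress response differed between the groups.

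ATF4 is the transcription factor at the centre of the integrated stress response. When kinases such as PERK or GCN2 phosphorylate the initiation factor eIF2, general translation falls while the ATF4 message is translated more, and ATF4 with its partners then raises genes for amino acid uptake, amino acid synthesis and one-carbon metabolism. Unfolded protein in the ER also acts through IRE1 (ERN1), which splices the XBP1 message, and through ATF6, and both raise chaperones and degradation factors. Since much of this control is exerted on translation, splicing and cleavage, the FPKM of ATF4, XBP1 and ATF6 give the amount of message only.

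The binding motifs of the pathway are shown here because they group the members by the letters of their promoters. RefSeq windows on GRCh38.p14, from 250 bases before to 50 bases after a transcription start, were at hand for 32 of the 38 members (50 windows, since a gene can have several starts) and for 27305 genes in all. PSPH, SLC7A11, SHMT2, ALDH1L2, PYCR1 and NUPR1 were not matched. The C/EBP-ATF response element, searched as TGATGNAA on both strands, was found for 8 of the 32 members (25%), against 4.46% of all genes with a window and 3.3% of the 13258 tested genes with one. These shares are per gene, and no allowance was made for the number of windows, 35116 over the 27305 genes. The members were listed as genes of this response, so a higher share of its motifs is not independent of that choice. In the sequences that follow, the capitals mark the motif, and each run is written 5′ to 3′ on the strand named. The count of bases runs from the transcription start of the window to the base of the match that lies furthest upstream. That start can be an alternative one inside the gene as listed, and lies well inside it for SLC3A2, SLC1A5 and, further below, PDIA6.
ASNS, chr7:97872459-97872486, minus strand, 68 bases before the start: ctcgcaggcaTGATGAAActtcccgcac
CEBPG, chr19:33374061-33374088, plus strand, 42 bases before: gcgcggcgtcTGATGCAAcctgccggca
CHAC1, chr15:40953252-40953279, minus strand, 209 bases before: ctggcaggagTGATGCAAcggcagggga
HERPUD1, chr16:56931956-56931983, minus strand, 176 bases before: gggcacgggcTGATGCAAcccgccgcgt
SLC1A4, chr2:64989382-64989409, minus strand, 7 bases before: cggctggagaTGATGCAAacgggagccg
SLC1A5, chr19:46784894-46784921, minus strand, 97 bases before: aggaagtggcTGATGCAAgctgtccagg
SLC3A2, chr11:62881726-62881748, minus strand, 38 bases after: ggagcTGATGTAAggagtcctgc
SLC7A1, chr13:29595664-29595691, minus strand, 8 bases after: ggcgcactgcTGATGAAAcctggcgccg
Of these 8 genes, SLC3A2 and CEBPG were higher after knockdown, CHAC1, HERPUD1, SLC1A4, SLC1A5 and SLC7A1 were lower, and ASNS was not called. Among all 38 members, 18.4% were higher and 65.8% lower. The letter left free in the motif was C in CEBPG, CHAC1, HERPUD1, SLC1A4 and SLC1A5. No link of the motif or of its free letter with direction was tested.

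The ER stress element, searched as CCAAT and CCACG with any 9 bases between them, is the motif known for ATF6 and XBP1 targets. It was found for 3 of the 32 members (9.38%), against 0.0916% of all genes with a window and 0.151% of the tested ones. The capitals mark both blocks of the motif.
CALR, chr19:12938379-12938407, minus strand, 225 bases before the start: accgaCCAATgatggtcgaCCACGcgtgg
PDIA6, chr2:10812848-10812876, minus strand, 86 bases before: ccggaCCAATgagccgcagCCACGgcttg
XBP1, chr22:28800598-28800626, minus strand, 52 bases before: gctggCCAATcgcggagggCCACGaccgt
CALR and PDIA6 were lower after knockdown and XBP1 was not called. The UPR element TGACGTGG was found for 1 member, ALDH18A1 (3.12% of 32, against 0.927% of all genes with a window). It stood at chr10:95656754-95656781 on the plus strand, 60 bases before the start, within cctacgctgtTGACGTGGggcgagggcc. ALDH18A1 was lower. A match of letters is a description and not evidence of binding in these cells, and the windows cover only the bases next to each start.

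PTPRN itself, as a check of the labels, was at 12.09 and 11.68 FPKM in the knockdown libraries and at 84.84 and 85.02 in the SCR libraries, a 7.15-fold lower mean. Depth, estimated from the step that 1 read makes in low values, was 17000000 to 18400000 reads a library. Of 8 marker genes of U87-type glioma lines, 7 were at 10 FPKM or more on average over the 4 libraries. All 8 differed between the groups, 3 higher and 5 lower. Higher were VIM (4766.13 and 4564.5 against 1997.7 and 1918.05), CD44 (315.84 and 313.53 against 151.78 and 151.56) and ANXA2. Lower were FN1 (51.63 and 51.54 against 417.39 and 424.73), NES (3.12 and 3.39 against 12.96 and 14.24), TNC, CHI3L1 and S100A6. The part of these differences in the results below was not tested. Over all tested genes with a mean of 10 FPKM or more, 47.1% were called higher and 31.7% lower. The growth protocol in the labels names the brain endothelial line hCMEC/D3. Of 12 endothelial markers, 11 had a mean FPKM under 1, the sum over the 12 was 4.60 to 5.25 in the knockdown and 5.51 to 5.57 in the SCR libraries, and CDH5, CLDN5, EMCN and TIE1 were near 0. Of these 12, 3 were called higher and 2 lower, where 30.8% of all genes tested were higher and 27.1% lower. The 4 astrocyte markers with a value, GFAP among them, were all under 1 on average, and the 5 myeloid markers with a value summed to 5.11 to 5.98 in the knockdown and 6.72 to 6.99 in the SCR libraries. In bulk RNA, a change in the share of cells with a message and a change in the message per cell cannot be told apart.

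More members were lower than higher after knockdown. Differences were tested with limma on log2(FPKM + 1) over 16595 genes, and a gene was called at a Benjamini-Hochberg adjusted p of 0.05 or less. Of the 38 members, 7 were higher (18.4%), where 30.8% of all genes tested were higher. Lower were 25 members (65.8%), where 27.1% of all genes tested were lower. Tested genes with a mean of 10 FPKM or more, as 30 of the 38 had, were 47.1% higher and 31.7% lower. Those shares also belong beside the role groups below. Since the members were chosen with earlier results of these data known, the shares of members called describe the 38 genes and are no test of the pathway. The 6 not called were ASNS, SDF2L1, EDEM1, XBP1, SESN2 and ATF6. Both libraries of one group lay beyond both of the other in the same 7 and 25 members, where 39.7% and 35.8% of all genes tested did so upward and downward. With 2 libraries a group, the smallest p that exact permutation can reach for 1 gene is 0.333, so the calls depend on limma's pooled estimate of the spread. The median log2 fold change was -0.31 over the members, 0.01 over all genes tested and 0.11 over the genes whose mean was 10 FPKM or more. At a fold change of at least 2 with an adjusted p of 0.001 or less, 1 member was higher (PPP1R15A, 2.63%, with 2.63% of all genes tested higher) and 2 were lower (SLC6A9 and PSAT1, 5.26%, with 4.06% of all genes tested lower). On the log2(FPKM + 1) scale, just inside that fold threshold lay PSAT1 (log2 fold change -1.02), and just outside lay CHAC1 (-0.98). With 1 library left out, 3 to 6 members were higher and 15 to 20 lower, the fewest without SCR replicate 1 (3 and 16) and SCR replicate 2 (3 and 15), and no member passed the stricter thresholds. The count of calls over all genes fell at the same time, from 5107 higher and 4496 lower to between 3472 and 3520 higher and between 3039 and 3097 lower.

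**Figure D1:**
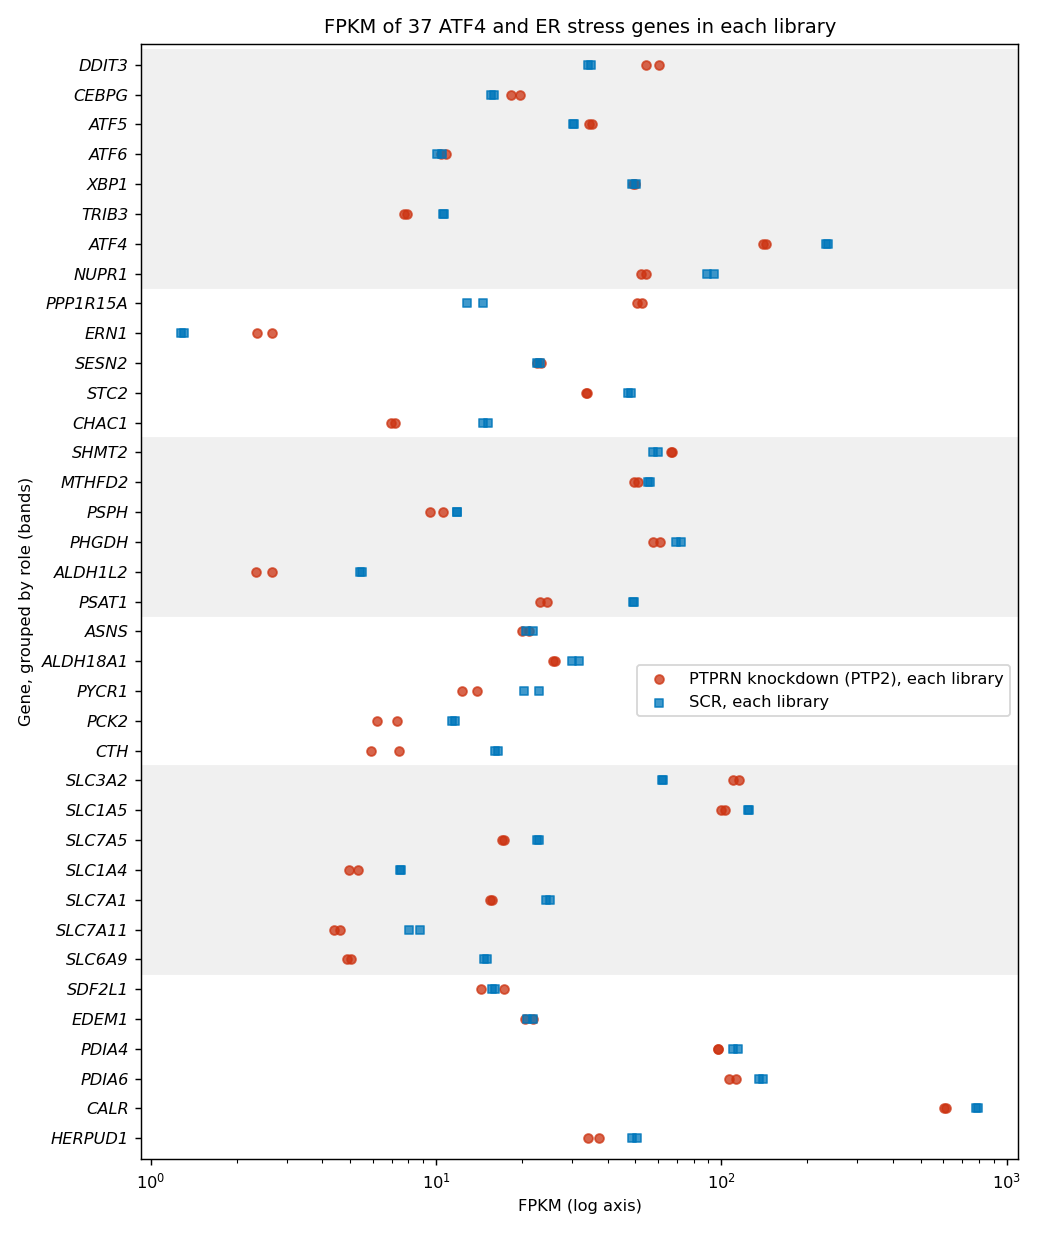
FPKM (log axis) of 37 members in each of the 2 PTPRN knockdown libraries (circles) and the 2 SCR libraries (squares), with bands for the role groups; CBS is left out because it was listed at 0 in 1 library. ATF4 lies between 139.94 and 143.01 in the knockdown libraries and between 232.57 and 236.26 in SCR, while PPP1R15A lies on the opposite side, at 50.58 and 52.84 against 14.56 and 12.83.

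Of the 8 transcription factors and regulators, 3 were higher and 3 lower (37.5% each), and 2 were not called (median log2 fold change 0.02). Of all genes tested, 30.8% were higher and 27.1% lower. Tested genes with a mean of 10 FPKM or more, as 7 of the 8 had, were 47.1% higher and 31.7% lower. ATF4 (Gene ID 468, chromosome 22 from 39520559 to 39522686 on GRCh38, plus strand) stood at 139.94 and 143.01 FPKM after knockdown and at 232.57 and 236.26 in SCR. Its log2 fold change was -0.72 (SE 0.03, limma adjusted p = 5.21e-04), a 1.66-fold fall with no overlap between the groups. It was the second most abundant member in both groups, after CALR. Pseudogenes of ATF4 are annotated, so some of its reads could belong to them. NUPR1, a small stress-induced chromatin protein, stood at 52.25 and 54.57 FPKM against 94.61 and 89.10, a 1.72-fold fall (log2 fold change -0.77, SE 0.05). TRIB3, a pseudokinase that ATF4 and CHOP induce and that feeds back on them, stood at 7.92 and 7.75 against 10.69 and 10.57 (-0.40, SE 0.03). So the factor and both of these target genes were lower in both knockdown libraries.

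DDIT3, which encodes the pro-apoptotic factor CHOP and is itself an ATF4 target, went the other way. It stood at 60.63 and 54.41 FPKM after knockdown and at 35.06 and 34.21 in SCR, a 1.66-fold rise (log2 fold change 0.71, SE 0.06, limma adjusted p = 0.00219). CEBPG, a partner of ATF4 in binding DNA, stood at 18.37 and 19.65 against 15.98 and 15.57 (0.25, SE 0.05). ATF5, a relative of ATF4 under the same translational control, stood at 34.35 and 35.19 against 30.46 and 30.19 (0.19, SE 0.03). With 1 library left out, the rises stayed at 0.64 to 0.79 for DDIT3, 0.21 to 0.30 for CEBPG and 0.17 to 0.21 for ATF5, while some calls were lost. Without SCR replicate 1 or 2, the limma adjusted p was 0.0549 and 0.0591 for DDIT3, 0.102 and 0.122 for CEBPG, and 0.0579 and 0.062 for ATF5, and that of CEBPG was 0.0554 without PTP2 replicate 2. DDIT3 (chromosome 12 from 57516588 to 57520517, minus strand) overlaps MARS on the opposite strand by 68 bases as listed and by 982 in GENCODE 29. MARS was lower (74.48 and 74.79 against 85.59 and 83.00 FPKM). GENCODE 29 also places AC022506.1 on the same strand as DDIT3, with 2769 bases of overlap. ATF5 overlaps NUP62 on the opposite strand by 1030 bases as listed, and NUP62 was at 30.35 and 30.13 against 26.35 and 25.02. In GENCODE 29, AC011452.1 overlaps ATF5 on the opposite strand by 5557 bases. Whether reads were counted by strand is not given in the sources used here, so reads in these stretches cannot be assigned.

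XBP1 and ATF6, the transcription factors of the other ER stress branches, were not called. XBP1 stood at 48.84 and 49.70 FPKM after knockdown and at 50.41 and 48.46 in SCR, with a log2 fold change of -0.00 and a 95% interval from -0.11 to 0.10. ATF6 stood at 10.42 and 10.80 against 10.08 and 10.53 (0.04, interval -0.07 to 0.15). In both genes the groups overlapped, and the intervals leave room for changes of at most about those sizes. A gene-level value does not separate spliced from unspliced XBP1.

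Among the sensor and feedback genes, 2 of 5 were higher, 2 lower and 1 not called. Beside this even split stand 30.8% higher and 27.1% lower over all genes tested. For tested genes with a mean of 10 FPKM or more, the shares were 47.1% and 31.7%. With so few genes, no excess in either direction is claimed for this group. PPP1R15A (GADD34, chromosome 19 from 48872392 to 48876062, plus strand), which brings a phosphatase to eIF2 and so reverses the translational block, had the largest rise of the 38 members. It stood at 50.58 and 52.84 FPKM after knockdown and at 14.56 and 12.83 in SCR, a 3.78-fold rise (log2 fold change 1.84, SE 0.07, limma adjusted p = 4.54e-04). ERN1, the ER membrane sensor IRE1, stood at 2.36 and 2.66 against 1.31 and 1.28 (0.61, SE 0.05), on about 87 to 181 reads a library. The ERN1 groups were apart. Its log2 fold change was 0.62 without SCR replicate 1 (limma adjusted p = 0.0521) and 0.60 without SCR replicate 2 (limma adjusted p = 0.055).

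CHAC1, which degrades glutathione and is a target of the ATF4 and CHOP branch, stood at 7.20 and 6.94 FPKM after knockdown and at 15.20 and 14.59 in SCR. This was a 2.11-fold fall (log2 fold change -0.98, SE 0.04, limma adjusted p = 4.59e-04). STC2, a secreted glycoprotein that is raised by ER stress, stood at 33.66 and 33.85 against 48.22 and 46.98 (-0.48, SE 0.03). Both were lower in each knockdown library than in either SCR library. SESN2, a leucine-binding inhibitor of mTORC1, stood at 22.51 and 23.32 against 23.10 and 22.65 (0.00, 95% interval -0.10 to 0.10), and its groups overlapped.

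**Figure D2:**
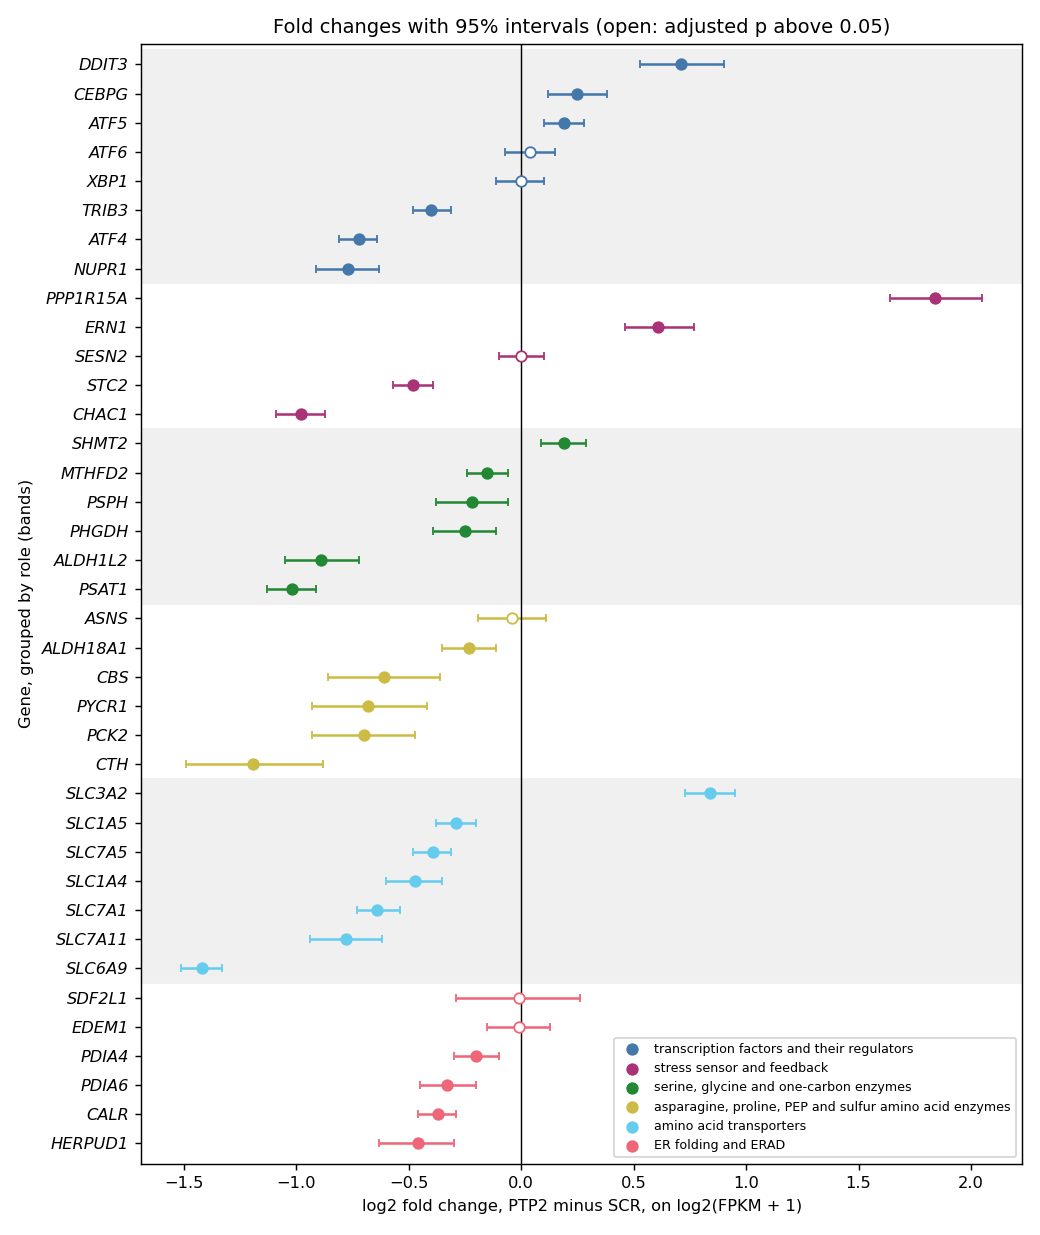
Log2 fold change (PTP2 minus SCR, on log2(FPKM + 1)) of the 38 members by role, with 95% intervals from limma; filled points had an adjusted p of 0.05 or less and open points did not. PPP1R15A (1.84) stands furthest to the right and SLC6A9 (-1.42) furthest to the left, and the 6 open points lie at -0.04 to 0.04.

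The serine synthesis and one-carbon genes were mostly lower, 5 of 6 (83.3%, where 27.1% of all genes tested were lower), with SHMT2 as the exception. Their median log2 fold change was -0.23. PSAT1 (chromosome 9 from 78297075 to 78330093, plus strand), the aminotransferase of the middle step from glycolysis to serine, stood at 23.16 and 24.50 FPKM after knockdown and at 49.42 and 49.21 in SCR. It fell 2.07-fold (log2 fold change -1.02, SE 0.04, limma adjusted p = 4.58e-04). PHGDH, the enzyme of the entry step, stood at 61.14 and 57.46 against 72.16 and 69.28 (-0.25, SE 0.05). PSPH, the phosphatase of the last step, stood at 10.54 and 9.52 against 11.84 and 11.81 (-0.22, SE 0.06). All 3 steps were lower, and the middle one by the largest factor. ALDH1L2, a mitochondrial formyltetrahydrofolate dehydrogenase, stood at 2.34 and 2.66 against 5.50 and 5.42, a 2.18-fold fall (-0.89, SE 0.06).

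SHMT2, the mitochondrial enzyme that turns serine into glycine, stood at 66.86 and 67.04 FPKM after knockdown and at 59.91 and 57.58 in SCR (log2 fold change 0.19, SE 0.03). MTHFD2, the next mitochondrial folate enzyme, stood at 49.32 and 50.96 against 56.04 and 55.44 (-0.15, SE 0.03). The sizes of these small differences held with 1 library left out, at 0.16 to 0.21 for SHMT2, -0.17 to -0.13 for MTHFD2 and -0.29 to -0.21 for PHGDH, while that of PSPH ran from -0.29 to -0.15. Their calls were lost under several alternatives. Both other scalings gave a smaller rise of SHMT2 (0.10 and 0.11). The limma adjusted p of SHMT2 was 0.0629 with quantile normalization, 0.0665 with median-ratio scaling, and 0.0906 and 0.0924 without PTP2 replicate 1 and 2. With any 1 of the 4 libraries left out, it was 0.0514 to 0.111 for MTHFD2 and 0.0526 to 0.124 for PHGDH, and for PSPH it was 0.0548 without PTP2 replicate 2, 0.208 without SCR replicate 1 and 0.206 without SCR replicate 2. With a pseudocount of 0.1 it was 0.0648 for PSPH and 0.0586 for MTHFD2. PSAT1, PSPH and MTHFD2 have processed or unprocessed pseudogenes in GENCODE that could share reads of 50 bases. The same holds for ATF4, XBP1 and SLC7A5.

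Of the 6 enzymes for asparagine, proline, phosphoenolpyruvate and sulfur amino acids, 5 were lower (83.3%) and ASNS was not called. Over all genes tested, 27.1% were lower. The median log2 fold change of the 6 enzymes was -0.64. CTH, which makes cysteine from cystathionine, stood at 7.39 and 5.91 FPKM after knockdown and at 16.50 and 16.16 in SCR. It fell 2.46-fold (log2 fold change -1.19, SE 0.11, limma adjusted p = 0.00221). PCK2, the mitochondrial PEP carboxykinase, stood at 6.20 and 7.28 against 11.70 and 11.40 (-0.70, SE 0.08). PYCR1, the last enzyme of proline synthesis, stood at 13.97 and 12.32 against 22.87 and 20.35 (-0.68, SE 0.09). These 3 genes fell by at least 1.64-fold with no overlap between groups. ALDH18A1, the first enzyme of proline synthesis, stood at 26.21 and 25.81 against 29.87 and 31.70 (-0.23, SE 0.04).

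With 1 library left out, the log2 fold change was -1.33 to -1.05 for CTH, -0.80 to -0.60 for PCK2, -0.76 to -0.59 for PYCR1 and -0.28 to -0.19 for ALDH18A1. The limma adjusted p of CTH was 0.0631 without SCR replicate 1 and 0.0622 without SCR replicate 2, and that of PCK2 was 0.0815 and 0.0782. For PYCR1 it was 0.0779, 0.0595 and 0.065 without SCR replicate 1, SCR replicate 2 and PTP2 replicate 2, and for ALDH18A1 it was 0.0952 and 0.106 without PTP2 replicate 1 and 2. So the direction was kept in each of these leave-outs while the call was not. CBS, which makes cystathionine, was almost off, at 0 and 0.13 FPKM after knockdown and 0.70 and 0.54 in SCR, on 0 to 34 estimated reads a library. Its log2 fold change was -0.61 (SE 0.09), or -2.24 with a pseudocount of 0.1, and its limma adjusted p was 0.0676 without PTP2 replicate 1, 0.0942 without SCR replicate 1 and 0.0715 without SCR replicate 2. CBSL, a near-identical copy, is listed as a gene of its own, so the split of reads between the copies is uncertain.

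ASNS (chromosome 7 from 97852117 to 97872542, minus strand), which makes asparagine and is a standard readout of ATF4, did not follow the others. It stood at 21.26 and 19.97 FPKM after knockdown and at 21.84 and 20.63 in SCR, and the groups overlapped. Its log2 fold change was -0.04 with a 95% interval from -0.19 to 0.11. Its promoter holds the C/EBP-ATF response element printed above. Pseudogenes of ASNS are annotated, so some of its reads could belong to them.

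Of the 7 amino acid transporters, 6 were lower (85.7%) and 1 was higher (14.3%), with a median log2 fold change of -0.47. Of all genes tested, 27.1% were lower and 30.8% higher. SLC6A9 (GLYT1, chromosome 1 from 43996483 to 44031492, minus strand), a glycine transporter, had the largest fall among the 38 members on the log2(FPKM + 1) scale. It stood at 4.87 and 5.02 FPKM after knockdown and at 15.05 and 14.78 in SCR, a 3.02-fold fall (log2 fold change -1.42, SE 0.03, limma adjusted p = 2.45e-04). SLC7A11 (xCT), the cystine-glutamate exchanger, stood at 4.38 and 4.60 against 8.06 and 8.82 (-0.78, SE 0.06). SLC7A1, the cationic amino acid transporter, stood at 15.42 and 15.67 against 24.33 and 25.10 (-0.64, SE 0.03). In all 3 the groups were well apart. The neutral amino acid carriers SLC1A4 and SLC1A5 fell less. SLC1A4 stood at 5.32 and 4.94 against 7.48 and 7.55 (-0.47, SE 0.04, with a limma adjusted p of 0.0519 without SCR replicate 2), and SLC1A5 stood at 99.94 and 103.26 against 124.58 and 124.10 (-0.29, SE 0.03).

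SLC3A2 (CD98 heavy chain, chromosome 11 from 62856012 to 62889344, plus strand) encodes the chain that carries the light chains SLC7A5 and SLC7A11 to the cell surface. It stood at 115.15 and 109.52 FPKM after knockdown and at 62.05 and 62.40 in SCR, a 1.81-fold rise (log2 fold change 0.84, SE 0.04, limma adjusted p = 5.65e-04). Its light chain SLC7A5 (LAT1), the leucine transporter, stood at 17.26 and 17.01 against 22.67 and 22.96 (-0.39, SE 0.03). The heavy chain thus rose while both light chains named here fell. Within a library, which needs no scaling between libraries, SLC3A2 had 6.67 and 6.44 times the FPKM of SLC7A5 after knockdown and 2.74 and 2.72 times in SCR. Against SLC7A11 it had 26.3 and 23.8 times after knockdown and 7.70 and 7.07 times in SCR. The summed FPKM of the 7 transporters was 262 and 260 against 264 and 266, so the group sum hardly moved although each member did.

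The same within-library ratios separated the groups elsewhere. These pairs were chosen after their values had been seen and carry no test. DDIT3 had 0.433 and 0.38 times the FPKM of ATF4 after knockdown and 0.151 and 0.145 times in SCR. PPP1R15A had 0.361 and 0.369 times that of ATF4, against 0.0626 and 0.0543. PHGDH had 2.64 and 2.35 times the FPKM of PSAT1, against 1.46 and 1.41. In each pair, the lower knockdown library lay above the higher SCR library. SHMT2 had 2.89 and 2.74 times that of PSAT1, against 1.21 and 1.17.

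The ER folding and degradation members were lower or not called, with 4 of 6 lower (66.7%) and none higher. Over all genes tested, 27.1% were lower and 30.8% higher. The median log2 fold change of these 6 members was -0.26. CALR, calreticulin, the calcium-binding chaperone of glycoproteins and the most abundant member, stood at 612.12 and 605.52 FPKM after knockdown and at 795.03 and 781.39 in SCR. It fell 1.29-fold (log2 fold change -0.37, SE 0.03, limma adjusted p = 0.00169), and the value was -0.70 with quantile normalization. PDIA6, a protein disulfide isomerase, stood at 112.67 and 106.47 against 139.93 and 135.11 (-0.33, SE 0.04). PDIA4, of the same family, stood at 97.34 and 97.68 against 114.51 and 110.24 (-0.20, SE 0.03). HERPUD1, a scaffold of the ER degradation machinery, stood at 37.32 and 34.23 against 48.57 and 50.71 (-0.46, SE 0.06). These 4 falls were all under 1.5-fold. With 1 library left out, the log2 fold change was -0.52 to -0.40 for HERPUD1, -0.37 to -0.29 for PDIA6 and -0.23 to -0.18 for PDIA4. The limma adjusted p was 0.0671 and 0.0796 for HERPUD1 and 0.0776 and 0.0649 for PDIA6 without SCR replicate 1 and 2, and 0.0807 and 0.0777 for PDIA4 without PTP2 replicate 1 and 2.

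The last 2 of this group had overlapping libraries. SDF2L1, a cofactor of the ER Hsp70 system, stood at 17.29 and 14.40 FPKM against 16.11 and 15.74 (log2 fold change -0.01, 95% interval -0.29 to 0.26). EDEM1, which hands misfolded glycoproteins to degradation, stood at 20.53 and 21.87 against 20.81 and 21.84 (-0.01, interval -0.15 to 0.13). Summed over the 6 genes, FPKM was 897 and 880 after knockdown and 1135 and 1115 in SCR, of which CALR made up most. Summed over all 38 members it was 1937 and 1918 against 2340 and 2303.

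Another 124 genes of the same pathways were taken from 5 lists. Of these, 51 were higher (41.1%) and 43 lower (34.7%) at an adjusted p of 0.05 or less (limma), and the median log2 fold change was 0.04. Of the tested genes with a mean of 10 FPKM or more, as 103 of the 124 had, 47.1% were higher and 31.7% lower. Without PTP2 replicate 1 the lower count was 28. The genes named here are those called in each direction with the highest mean FPKM in their list.

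In the list of stress kinases and eIF2 control, 12 of 23 genes were higher (52.2%) and 6 lower (26.1%). These shares were near the 47.1% and 31.7% of tested genes with a mean of 10 FPKM or more, as 18 of the 23 had. EIF2S2, the beta subunit of eIF2, stood at 112.22 and 112.76 FPKM against 66.96 and 64.60 (log2 fold change 0.77, SE 0.03). CREB3, an ER membrane transcription factor, rose by less (0.37, SE 0.03). MBTPS1, the protease that cleaves ATF6 in the Golgi, stood at 23.81 and 24.14 against 45.88 and 47.73 (-0.94, SE 0.04), and CREB3L1 also fell (-0.79, SE 0.03). MBTPS1 was lower while ATF6, its substrate, was not called.

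Of the 31 other ATF4 target and partner genes, 10 were higher (32.3%) and 14 lower (45.2%). Over all genes tested, 30.8% were higher and 27.1% lower, and over those at 10 FPKM or more on average, 47.1% and 31.7%. CEBPB, a partner of ATF4, stood at 132.66 and 131.22 FPKM against 80.62 and 77.81 (log2 fold change 0.73, SE 0.03), and XPOT, the exporter of tRNA from the nucleus, rose slightly (0.14, SE 0.03). VEGFA, the angiogenic growth factor, stood at 134.26 and 133.44 against 225.84 and 222.27 (-0.74, SE 0.03). SLC38A2, a neutral amino acid transporter that adapts to amino acid supply, fell too (-0.51, SE 0.04). Of the 20 cytosolic aminoacyl-tRNA synthetases, which load tRNA with amino acids and include several ATF4 targets, 11 were higher (55.0%) and 4 lower (20.0%). All 20 had a mean of 10 FPKM or more, so the shares to set beside these are 47.1% and 31.7%. TARS (0.44, SE 0.04) and SARS (0.35, SE 0.04) were higher, and AARS (-0.45, SE 0.03) and MARS (-0.17, SE 0.03) were lower.

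Among 28 other ER chaperones and folding enzymes, 9 were higher (32.1%) and 13 lower (46.4%). Tested genes with a mean of 10 FPKM or more, as 25 of the 28 had, were 47.1% higher and 31.7% lower. HSPA5 (BiP), the main Hsp70 of the ER, stood at 294.51 and 298.53 FPKM against 248.66 and 250.40 (log2 fold change 0.25, SE 0.03). Calnexin, CANX, stood at 196.06 and 196.49 against 131.76 and 140.31 (0.53, SE 0.04). So CANX rose while CALR, its soluble relative, fell. P4HB, the most abundant disulfide isomerase of the list, stood at 338.38 and 334.86 against 549.25 and 533.64 (-0.68, SE 0.03), and PDIA3 fell as well (-0.25, SE 0.04). Of 22 other ER-associated degradation genes, 9 were higher (40.9%) and 6 lower (27.3%). A mean of 10 FPKM or more was reached by 20 of these 22, so the shares to set beside them are again 47.1% and 31.7%. VCP, the ATPase that extracts proteins from the ER membrane (0.18, SE 0.03), and AUP1 (0.77, SE 0.05) were higher, and the lectin ERLEC1 (-0.17, SE 0.04) and the ubiquitin ligase RNF5 (-0.54, SE 0.06), which the table places on an alternate sequence of chromosome 6, were lower.

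**Figure D3:**
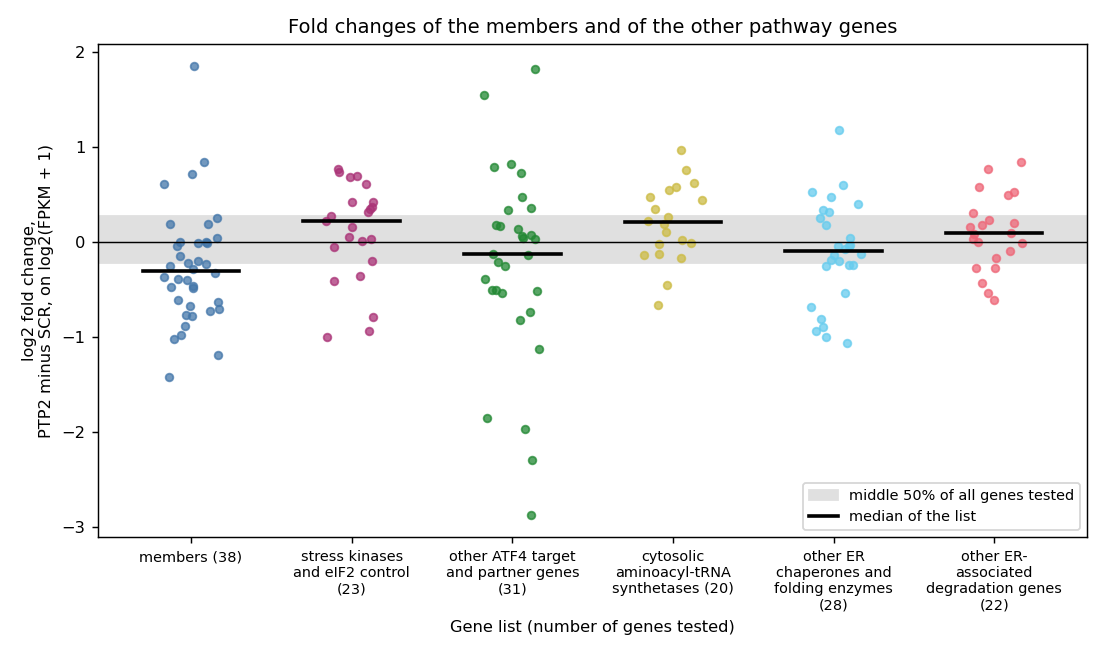
Log2 fold change (PTP2 minus SCR, on log2(FPKM + 1)) of the 38 members and of the 5 other lists, 1 point a gene, with the median of each list as a bar and the middle 50% of all genes tested, -0.22 to 0.27, shaded. The median of the members, -0.31, lies under the shaded range, and the medians of the other lists lie between -0.13 and 0.22.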

How the data were processed

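Single-end reads of 50 bases were sequenced on a BGISEQ-500 from 2 PTP2 and 2 SCR libraries, made with a NEBNext kit. The authors deposited 1 FPKM value per gene and library, rounded to 2 decimals, in 2 tables (0 of 66380 values differed). The submitters' processing notes name HISAT2 2.1.0 and hg19, but the positions listed lie on GRCh38 (37 of 38 members within 5000 bases of RefSeq at both ends). The counting program, annotation and strand setting are not given in the sources used here. Columns with the authors' own log2 fold changes, p-values and q-values from DEGseq and PossionDis were not used.

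All 16595 genes above 0 in 1 or more libraries (another 2719 had no value) were fitted with limma 3.58.1 (R 4.3.3) on log2(FPKM + 1), with group as the only term and default eBayes, and p-values were adjusted by Benjamini-Hochberg over all of them. The fit was tested on simulated data. A fold is the ratio of group mean FPKM, while a log2 fold change includes the pseudocount of 1 and so understates low genes. Depth was estimated from low values of genes with 1 transcript of at most 1000 bases, of which 83.2% to 90.6% lay within 0.15 of a whole read, and estimated reads use the longest transcript. Overlapping genes were looked up in GENCODE 29, where 15 of the 38 members have a gene on the opposite strand. The 38 members and all lists were chosen with earlier results of these data known. All members are named, and of each other list the 2 called genes of highest mean FPKM in each direction, with PTPRN as the targeted gene.

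Alternatives were a pseudocount of 0.1, a minimum of 1 FPKM in 2 libraries, quantile normalization, median-ratio scaling, eBayes with trend, the replicate number as a block, leaving out each library and, chosen after seeing the data, a pseudocount of 0.1 with trend.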

Additional observations from a re-analysis of the deposited data

How the results depend on the processing

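No member changed direction among those called, under any alternative run. The count of members called was 3 to 6 higher and 15 to 20 lower with 1 library left out, and of the 124 other pathway genes 36 to 39 were higher and 28 to 34 lower. The members' median log2 fold change was -0.41 with quantile normalization, -0.38 with median-ratio scaling and -0.33 to -0.29 with 1 library left out. At the stricter thresholds 0 members were higher and 0 lower with a pseudocount of 0.1, with the replicate block and with any 1 library left out (limma), where 27 to 32 members still had an unadjusted p under 0.05. Over all genes that count was 1111, or 1289 with the FPKM minimum, 1172 with a pseudocount of 0.1 and trend, and 0 in the same settings, in which 8760 to 10185 genes had an unadjusted p under 0.05; fewer samples or degrees of freedom enter the block and leave-out fits, and for the pseudocount of 0.1 the cause was not tested.

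Same-numbered deviations from the group means correlated at 0.064 over 11272 genes. With so few libraries, this cannot tell whether same-numbered libraries shared a culture or a batch. With the replicate block, 7 members were higher and 23 lower, and PSPH and MTHFD2 were no longer called. A log2 fold change of CBS could not be had under the FPKM minimum. Depth limits CBS and ERN1, the members with the fewest reads.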

Other observations

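Some of the widest differences in these pathways lay in ATF4 target and partner genes outside the 38, which were picked here after their values had been seen. TXNIP, an inhibitor of thioredoxin that follows glucose supply, stood at 9.23 and 9.52 FPKM after knockdown and at 73.55 and 76.14 in SCR, a 7.98-fold fall. DDIT4 (REDD1), an inhibitor of mTORC1, stood at 61.29 and 58.18 against 299.49 and 293.51, a 4.96-fold fall. INHBE, an activin subunit, stood at 3.0 and 3.11 against 13.74 and 13.58. ATF3 and GADD45A, both genes of the stress and growth arrest response, went up as PPP1R15A and DDIT3 did. ATF3 stood at 23.12 and 21.47 against 7.26 and 6.71, and GADD45A at 93.18 and 91.47 against 26.41 and 24.47, a 3.63-fold rise.

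The genes of this paragraph were also picked after their values had been seen. All 5 subunits of eIF2B, the exchange factor that phosphorylated eIF2 blocks, were higher, with log2 fold changes from 0.16 (EIF2B1) to 0.61 (EIF2B3). The kinases PERK (EIF2AK3, 6.18 and 6.43 FPKM against 8.20 and 8.5) and GCN2 (EIF2AK4, 21.73 and 22.14 against 24.77 and 26.00) were lower. Of all genes tested, 30.8% were higher and 27.1% lower, and of those with a mean of 10 FPKM or more, 47.1% and 31.7%. The other eIF2 kinases of the list, EIF2AK1 (log2 fold change 0.05) and EIF2AK2 (0.22), were not called. In both, the knockdown libraries lay above the SCR libraries, as in 39.7% of all genes tested. ATF6B, the relative of ATF6, stood at 16.22 and 15.91 against 32.90 and 33.07.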
